A study of Mus musculus with 3 samples.

Results

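The genes of the proteasome, named Psma to Psmg, were examined in gene counts of 3 RNA sequencing libraries of mouse T helper 1 (Th1) cells. Members were all genes whose symbol is Psm, a letter from a to g, a number and any lower-case letters after it, which gave 50 of the 50600 genes counted. The libraries form 1 group: primary Th1 cells of strain C57BL/6NJ, biological replicates 1, 2 and 3 by the labels, and the file headers place them at 48 h in a time course of Th1 and Th2 differentiation. No treatment or genotype is given, age is unknown and sex was not collected. The 3 libraries share a donor identifier, so the p-values reflect how these samples differ from each other and no more, and that spread may be technical. The labels call the assay total RNA-seq, whereas the cited library protocol is named for poly(A)+ RNA. No other helper cell or time point was analysed here, so genes were compared within each library.

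The proteasome degrades proteins marked with ubiquitin. Its core is a barrel of alpha subunits (Psma genes), which form the outer rings and the gate, and beta subunits (Psmb genes), of which Psmb6, Psmb7 and Psmb5 encode the cutting subunits beta1, beta2 and beta5. A cap on the barrel's end holds ATPases (Psmc genes) that unfold substrates and further subunits (Psmd genes) that bind and remove ubiquitin. Interferon gamma, the signature cytokine of Th1 cells, induces the counterparts Psmb9 (beta1i), Psmb10 (beta2i) and Psmb8 (beta5i), which replace the standard cutting subunits in the immunoproteasome, and the PA28 activator genes Psme1 and Psme2. Immunoproteasomes are also carried by B cells and antigen-presenting cells.

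The depth of the libraries limited what could be read from them. Replicates 1, 2 and 3 held 4742025, 50627 and 3543816 counts in total, and 3 counts, the limit that a count of 0 allows, were worth 0.633, 59.3 and 0.847 CPM (counts scaled to the library total). No member had more than 31 counts in replicate 2, and 11 had 10 or more there. Intervals are 95% exact (Clopper-Pearson) and cover counting error only. Levels are in TPM, in which counts are divided by gene length and scaled to the same sum in every library, or in CPM where a gene is compared with itself. All 8 T cell markers examined (among them Cd3e, Cd4 and Tbx21) reached 1 TPM in every library, whereas Cd8a, the B cell marker Ms4a1 and the myeloid marker Lyz2 had no count. Cd8b1, the other gene of the CD8 receptor, had 21, 1 and 13 counts in replicates 1, 2 and 3. Of the 11 B cell and antigen-presenting markers, 3 (Ighm, Cd74 and Csf1r) reached 1 TPM in every library, and the 11 summed to 282, 194 and 260 TPM in replicates 1, 2 and 3. Csf1r alone gave 105, 84.5 and 167 TPM of these sums. Exons of the opposite strand overlap 17.8% of its length, and the part of this overlap in its level was not tested. The part of B cells and antigen-presenting cells in the levels of the immunoproteasome genes was not tested.

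The sequences before the RefSeq start sites of Psmb5 and Psmb6 are shown because both carry the core of an antioxidant response element, TGACNNNGC (in capitals). That element is bound by factors such as NFE2L1, a regulator of standard proteasome genes. The stretches are 5′ to 3′ on the gene's strand in GRCm38.p6, 223 bases for Psmb5 (chr14:54618023-54618245, minus strand; 27 exonic bases next to the start left out) and 250 for Psmb6 (chr11:70525107-70525356, plus strand). Relative to the start, the core began at position -47 in Psmb5 and -9 in Psmb6.
Psmb5: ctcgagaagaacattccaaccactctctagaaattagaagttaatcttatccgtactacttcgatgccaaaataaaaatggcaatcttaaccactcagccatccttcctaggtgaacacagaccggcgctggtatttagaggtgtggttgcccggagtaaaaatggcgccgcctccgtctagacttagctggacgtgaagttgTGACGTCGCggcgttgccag
Psmb6: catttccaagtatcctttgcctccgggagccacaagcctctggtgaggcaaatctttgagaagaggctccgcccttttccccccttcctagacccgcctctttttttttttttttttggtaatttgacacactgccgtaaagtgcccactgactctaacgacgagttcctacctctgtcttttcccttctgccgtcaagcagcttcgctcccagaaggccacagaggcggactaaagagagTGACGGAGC
Psmb8 carried a gamma activated site, TTCNNNGAA, an element that responds to interferon gamma. Its letters were TTCCCAGAA, beginning at position -97 relative to the RefSeq start of Psmb8.
Start-site windows of 300 bases (250 before to 50 after) were at hand for 42 members, with 45 windows in all, and both strands were searched. Psmb7, the other standard cutting subunit gene, had no window and was not searched. The gamma activated site was in 3 of the 45 (6.67%), of Psmb8, Psmd2 and Psmg1, against 8.30% of all 32851 windows. The antioxidant core was in 6 (13.3%), of Psmb5, Psmb6, Psmc6, Psmd9, Psmd12 and Psme4, against 12.4% of all. An interferon response element was in 5 (11.1%), of Psmb3, Psmd4, Psmd9, Psme1 and Psmg4, against 3.44% of all. A loose kappaB pattern, whose matches may overlap each other, was in 25 (55.6%) against 50.8% of all. The windows of Psmb9 and Psmb10 held neither the gamma activated site nor the antioxidant core. Apart from the interferon element, the shares in members were near those of all windows. Matches are letters in a window, not sites shown to be bound.

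By the deposited counts, members stood well above the typical gene. The counts were made with strand setting 1, and whether that setting matches the library kit was not tested. Of the 50, 42 reached 1 TPM in every library, against 14.8% of all genes, and 47 did so in both replicates 1 and 3, against 24.2% of all genes. The median member stood at 109, 74.2 and 45.6 TPM in replicates 1, 2 and 3, where the median gene with a count stood at 7.77, 31.0 and 4.97 TPM. Together the members took 0.691% of all counts in replicate 1 and 0.401% in replicate 3, with intervals of 0.684 to 0.699 and 0.394 to 0.407, and 0.632% in replicate 2 (0.565 to 0.705). The share was thus lower in replicate 3 than in replicate 1 by more than counting error. Across the 50 members, log2(TPM + 1) had a Pearson's r of 0.98 between replicates 1 and 3, and of 0.83 and 0.84 between replicate 2 and replicates 1 and 3. These values are across genes, which share gene lengths between libraries.

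**Figure D1:**
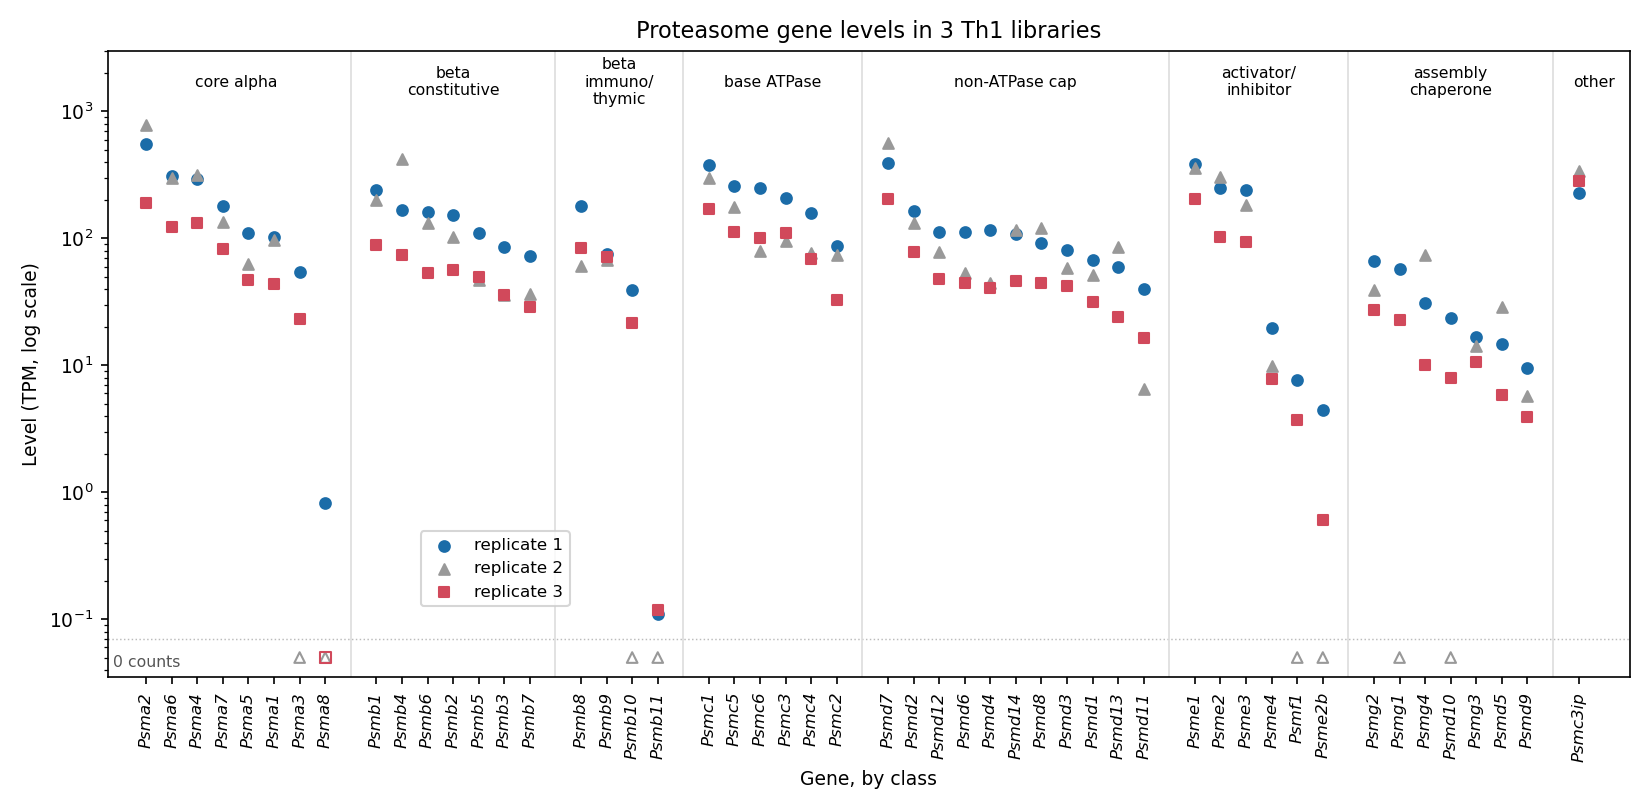
Level of each of the 50 members (TPM, log axis) in the 3 libraries, grouped by class and ordered within a class by the mean of replicates 1 and 3; open symbols at the bottom are counts of 0. The medians of assembly chaperones lie below those of the alpha, constitutive beta and cap classes, Psma8 and Psmb11 are at or near 0, and most members are lower in replicate 3 than in replicate 1.

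In TPM the alpha ring was led by Psma2, at 550, 787 and 189 in replicates 1, 2 and 3 (n = 3). It was the highest member of all in replicates 1 and 2 by TPM. This order rests on gene length, which was 944 bases for Psma2 against 2911 for its principal transcript. In CPM, Psma2 stood at 234 and 99.3 in replicates 1 and 3, below Psma4 at 314 and 174. Psmd7, a cap gene, was above it in every library, at 401, 612 and 259 CPM against 234, 356 and 99.3. The median of the 8 alpha genes was 144, 116 and 64.7 TPM. Psma3, by TPM the lowest of the 7 ubiquitous alpha genes, stood at 54.5 and 23.1 TPM in replicates 1 and 3 and had no count in replicate 2. Psma8, the alpha subunit of testis proteasomes that stands in for Psma7, had 3, 0 and 0 counts. Its log2 ratio to Psma7 was -7.75 in replicate 1 (interval -10.03 to -6.20), and with no count it was at least 91.5-fold lower in replicate 3 and at least 1.84-fold lower in replicate 2, taking 3 counts per library and the count of Psma7 as exact. Psma7 itself stood at 179, 134 and 82.2 TPM.

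The 7 constitutive beta genes had a median of 154, 103 and 53.7 TPM. By TPM, Psmb1 led them over replicates 1 and 3, at 240, 199 and 88.6 in replicates 1, 2 and 3, and Psmb7 was lowest. This order rests on gene length. In CPM, Psmb4 was highest in replicates 1 and 3 (148 and 79.9) and Psmb5 lowest (43.7 and 24.0). Psmb4, a structural subunit, stood at 168, 423 and 73.6 TPM. Its high value in replicate 2 rested on 20 counts, the most of any beta gene there. Psmb2, another structural subunit, followed the common order, at 154, 103 and 56.0 TPM.

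The cutting subunits did not follow 1 pattern when the interferon-inducible forms were set against the standard ones. Psmb8 was above Psmb5 in 3 of 3 libraries, Psmb10 was below Psmb7 in both libraries with counts, and the order of Psmb9 and Psmb6 differed between replicates 1 and 3. Psmb8 (chromosome 17, 34197721 to 34201454, plus strand, mm10) stood at 179, 60.4 and 83.3 TPM in replicates 1, 2 and 3, and Psmb5 (chromosome 14, 54614120 to 54617995, minus strand) at 111, 47.4 and 49.5 TPM. The log2 ratio of Psmb8 to Psmb5 was 0.69 (interval 0.47 to 0.91) and 0.75 (0.41 to 1.10) in replicates 1 and 3, and 0.35 (-2.99 to 5.97, on 4 and 1 counts) in replicate 2. The order in replicates 1 and 3 exceeded counting error, and replicate 2 could not show it. The mean was 0.60 ± 0.22 (SD, n = 3; exact two-sided sign-flip permutation p = 0.25, the smallest 3 libraries allow; adjusted 0.55 over the 11 ratios that could be tested). Psmb8 has the longer gene model, and with the length of its principal transcript, an alternative chosen after seeing the data, the mean ratio was 1.35. Here and below, a principal transcript length was used only where it was shorter than the gene model, so the length of Psmb5 was unchanged. Psmb8 shares 186 exonic positions with Gm20496 on the other strand, which stood 39.8-fold above it per kb in replicate 1 and 112-fold in replicate 3. Psmb5 has no such overlap. The part of the overlap in the ratio was not tested, and the counting intervals do not cover it.

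Psmb9 (chromosome 17, 34181988 to 34187764, minus strand) stood at 75.3, 67.7 and 71.5 TPM and Psmb6 (chromosome 11, 70525367 to 70527858, plus strand) at 160, 132 and 53.7 TPM in replicates 1, 2 and 3. The values of Psmb9 spanned a narrow range, whereas Psmb6 was lowest in replicate 3. The log2 ratio of Psmb9 to Psmb6 was -1.09 in replicate 1, with an interval of -1.25 to -0.92, but 0.42 in replicate 3, with 0.18 to 0.66, and on 6 counts each it was -0.97 (-2.87 to 0.94) in replicate 2. The intervals of replicates 1 and 3 do not overlap. The mean was -0.55 ± 0.83 (SD, n = 3; exact two-sided sign-flip permutation p = 0.50, adjusted 0.55), and 0.42 when CPM replaced TPM. Psmb9 shares 212 exonic positions with Tap1 on the other strand; the part of this overlap in its level was not tested.

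Psmb10 (chromosome 8, 105935735 to 105938444, minus strand), the lowest of the 3 inducible subunits, stood at 39.2 and 21.7 TPM in replicates 1 and 3, with no count in replicate 2. Psmb7 (chromosome 2, 38588036 to 38644087, minus strand) stood at 73.2, 36.2 and 28.8 TPM in replicates 1, 2 and 3. The log2 ratio of Psmb10 to Psmb7 was -0.90 (interval -1.18 to -0.63) and -0.41 (-0.81 to -0.01) in these libraries. The mean was -0.65 ± 0.35 (SD, n = 2), and -1.83 with principal transcript lengths. An exact sign-flip permutation test over 2 libraries cannot go below p = 0.50. Psmb7 shares 405 exonic positions with Nek6 on the other strand, and the part of this overlap in the ratio was not tested. Psmb11, the thymic beta5 form, had 1, 0 and 1 counts, and its log2 ratio to Psmb5 was -9.98 (-15.29 to -7.49) and -8.70 (-14.02 to -6.18) in replicates 1 and 3.

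Summed, Psmb8, Psmb9 and Psmb10 stood at 294, 128 and 177 TPM in replicates 1, 2 and 3, and Psmb5, Psmb6 and Psmb7 at 344, 216 and 132 TPM. The inducible sum was the lower in replicates 1 and 2 and the higher in replicate 3, with log2 ratios of -0.23, -0.75 and 0.42. Their mean of -0.19 ± 0.59 (SD, n = 3) did not differ from 0 beyond the spread between libraries (exact two-sided sign-flip permutation p = 0.75, adjusted 0.75). It was 0.10 without replicate 2 and 0.50 in CPM, so these libraries give no order of the sums.

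**Figure D2:**
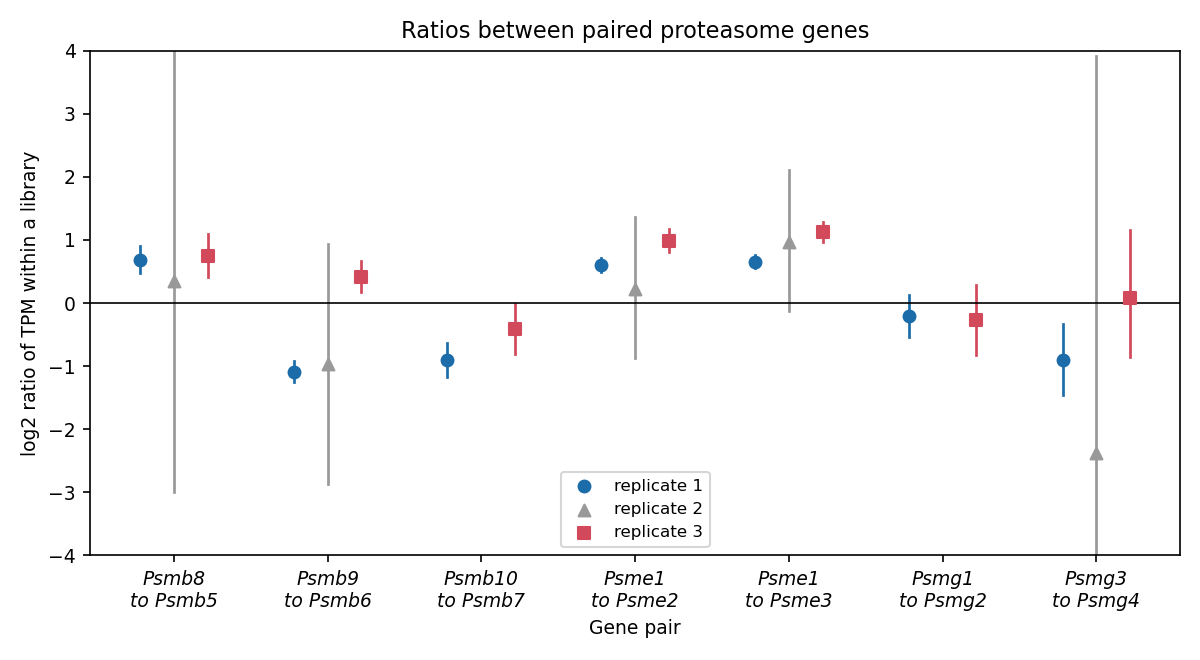
Log2 ratio of TPM between paired genes in each library, with 95% counting intervals as lines (cut at the limits of the axis where they run past it) and no point where either gene had 0 counts. Psmb8 lies above Psmb5 in all 3 libraries, Psmb10 below Psmb7 where measured, and Psmb9 changes side between replicates 1 and 3.

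By median TPM, the ATPase genes lay above the alpha and constitutive beta genes in replicates 1 and 3 and below both in replicate 2. The other cap genes lay below both in every library. That order rests on gene length. In CPM, the mean class median on the log2 scale was 6.81 for the other cap genes and 6.15 for constitutive beta genes. The 6 ATPase genes had a median of 229, 87.1 and 106 TPM, with Psmc1 highest, at 379, 299 and 169 TPM in replicates 1, 2 and 3, and Psmc2 lowest, at 87.6, 73.9 and 32.6 TPM. Their level in replicate 2 rested on 3 to 11 counts a gene. The 11 other cap genes had a median of 108, 77.9 and 44.5 TPM. Psmd7, a lid subunit, stood at 392, 566 and 206 TPM, and was the highest member of that class in every library. Psmd11, another lid subunit, was the lowest, at 39.9, 6.47 and 16.5 TPM. In CPM, the lowest ATPase gene in replicates 1 and 3 was Psmc4 (155 and 82.1), and the lowest other cap gene was Psmd13 (90.7 and 45.4). Psmd4, a ubiquitin receptor, stood at 115, 44.1 and 40.5 TPM.

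Of the activators, Psme1, Psme2 and Psme3 were the highest. Psme1 (PA28 alpha; chromosome 14, 55578123 to 55581529, plus strand) stood at 382, 355 and 204 TPM and Psme2 (PA28 beta; chromosome 14, 55587441 to 55591113, minus strand) at 251, 304 and 103 TPM in replicates 1, 2 and 3. Psme3, the nuclear PA28 gamma, stood at 242, 182 and 93.2 TPM. The order of Psme2 and Psme3 rests on gene length. In CPM, Psme3 was above Psme2 in replicates 1 and 3, at 323 and 153 against 200 and 101, and equal to it in replicate 2. Psme1 was above Psme2 and Psme3 in 3 of 3 libraries, and all 3 genes were lowest in replicate 3. The log2 ratio of Psme1 to Psme2, which form 1 ring, was 0.61, 0.22 and 0.99 (mean 0.61 ± 0.38, SD, n = 3; exact two-sided sign-flip permutation p = 0.25, adjusted 0.55). Its interval of -0.87 to 1.36 in replicate 2 includes 0, and the intervals of replicates 1 (0.49 to 0.72) and 3 (0.81 to 1.17) do not overlap.

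The mean log2 ratio of Psme1 to Psme3 was 0.92 ± 0.24 (SD, n = 3; same p), or 1.76 with principal transcript lengths. Psme4, the PA200 activator, stood far lower, at 19.7, 9.85 and 7.75 TPM, with a mean log2 ratio of Psme1 to it of 4.72 ± 0.45 (5.34 with principal transcript lengths). Against Psmd1, the large scaffold of the standard cap, Psme1 was 5.71-, 6.94- and 6.52-fold higher in replicates 1, 2 and 3 (mean log2 ratio 2.67 ± 0.14). For Psme4 and Psmd1, too, the exact sign-flip permutation p was 0.25. Psmf1, the proteasome inhibitor PI31, had 105, 0 and 47 counts, or 7.61 and 3.70 TPM in replicates 1 and 3. Psme2b, a near copy of Psme2 on chromosome 11 with 8, 0 and 1 counts, may share reads with it, and so may 4 genes with pseudogene symbols of Psmb5, Psmb6 and Psmb7, all at 0 counts.

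Genes of assembly factors had a median of 23.5, 14.3 and 10.1 TPM over 7 genes, below that of every other class in each library. The order does not hold throughout. In replicate 2 the median of log2(TPM + 1) was 2.97 for the inducible and thymic beta genes and 3.93 for assembly genes. Among those without opposite-strand exons, the mean of the class median of log2(TPM + 1) was 4.24 for assembly genes, 3.65 for activators and the inhibitor and 1.69 for Psmb10 and Psmb11. Psmg1 and Psmg2, the chaperones that pair to build the alpha ring, stood at 57.3 and 66.2 TPM in replicate 1 and at 22.6 and 27.3 TPM in replicate 3. Neither library separated them (log2 ratio -0.21, interval -0.53 to 0.12, and -0.27, interval -0.82 to 0.28); replicate 2 had 0 and 1 counts. Psmg3 stood at 16.6, 14.3 and 10.7 TPM and its partner Psmg4 at 31.2, 74.5 and 10.1 TPM in replicates 1, 2 and 3, with 1 count each in replicate 2. Their log2 ratio of -0.91 in replicate 1 (-1.46 to -0.32) was 0.09 in replicate 3 (-0.85 to 1.16), where 11 counts of Psmg4 gave no order. Both orders rest on gene length and turned with principal transcript lengths, to a mean of 0.13 for Psmg1 to Psmg2 and 0.64 for Psmg3 to Psmg4.

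Among the chaperones of the cap base, Psmd9 was the lowest of the class by TPM, at 9.60, 5.70 and 3.92. In CPM, Psmg4 was the lowest in replicates 1 and 3, at 7.80 and 3.10. Psmd10, or gankyrin, had 74, 0 and 23 counts. Psmd5 stood at 14.7, 28.6 and 5.82 TPM, with 5 counts in replicate 2. Pomp, the maturation factor of the core, which the symbol rule leaves out, stood at 59.3, 63.3 and 20.6 TPM.

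Psmc3ip fits the symbol rule but is no proteasome subunit: it encodes a partner of meiotic recombination proteins, named for binding Psmc3. It stood at 227, 341 and 280 TPM in replicates 1, 2 and 3. It was the highest member in replicate 3, where its 1005 counts made up 7.08% of all member counts (interval 6.66 to 7.51), against 2.69% in replicate 1 (2.52 to 2.87). Psmc3ip shares 385 exonic positions, 21.2% of its length, with Mlx on the other strand. The part of this overlap in its level was not tested.

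Most members tested varied between the 3 libraries, but the count depended on which genes and libraries were fitted. A chi-square test over the 3 libraries with TMM scaling (edgeR) asked whether a gene varied more than counting error allows, with p-values adjusted over all 7406 genes tested. Of the 42 members tested, 35 varied, 33 of them lower and 2 higher in replicate 3 than in replicate 1 by CPM. Of all genes tested, 63.2% varied. By CPM, 25.3% of all genes with at least 50 counts in replicates 1 and 3 together were higher in replicate 3. The 8 others, among them Psma3 and Psmb10, were left out because they had no count in replicate 2. When the test was run on genes free of opposite-strand exons, 6 of 30 members varied, against 13.6% of such genes. This alternative was chosen after seeing the data. The 6 were Psma2 (adjusted p = 0.00017), Psmb4 (0.0017), Psmd7 (0.0030), Psmb6 (0.012), Psmd4 (0.012) and Psme3 (0.032; chi-square test with edgeR's TMM, Benjamini-Hochberg adjustment). The test takes in all 3 libraries, so such a call need not lie in replicate 3. Psmb4 (148, 395 and 79.9 CPM) and Psmd7 (401, 612 and 259) were highest in replicate 2, on 20 and 31 counts there. Without replicate 3, 1 of 42 members varied, against 3.65% of all genes tested, and without replicate 1, 2 of 41, against 9.47%. Both rest on the few counts of replicate 2. Without replicate 2 the count was 21 of 47, against 37.9%.

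T cell markers were lower in replicate 3 than in replicate 1 too, by CPM in 8 of 8 cases. They summed to 1448, 1098 and 585 TPM in replicates 1, 2 and 3. Most genes were lower in replicate 3. Of all genes with at least 50 counts over both libraries, 25.3% were higher there, and 5.17% of those without opposite-strand exons. Of genes overlapped by opposite-strand exons over 50% or more of their length, 93.0% were higher in replicate 3. A lower value in replicate 3 was thus not particular to T cell markers. In bulk samples, fewer cells of a type and less RNA per cell cannot be told apart. The part of either in the members was not tested, nor that of a difference between the libraries shared by most genes.

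Members with and without opposite-strand exons were then taken apart, each beside all genes of the same kind. The counts were made with strand setting 1, per the file headers; how far fragments of 1 strand reached the counts of the other was not tested. Of the 50 members, 38 overlap no exon of an opposite-strand gene and 12 do, for 0.342% to 25.5% of their exonic length. Of the 46 members with at least 50 counts in replicates 1 and 3 together, 2 had a higher CPM in replicate 3, against 25.3% of all such genes. None of the 34 without overlap did (5.17% of all genes without overlap), and their median log2 ratio was -0.96 (range -1.27 to -0.34), where all 5857 such genes had a median of -0.84. Of the 12 with overlap, 2 did (53.6% of all genes with overlap), with a median of -0.80 where all 4162 such genes had 0.22. The sets are unlike in extent: the 4162 include 471 genes overlapped over 50% or more of their length, with a median of 0.77. Members overlap by at most 25.5%.

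The members at the ends of this order were the following. Psmb6 (-1.27), Psmd10 (-1.27), Psma2 (-1.24), Psmd4 (-1.21) and Psmb2 (-1.16) were lowest in replicate 3 relative to replicate 1. Psmc3ip (0.61, interval 0.48 to 0.74) and Psmb9 (0.23, 0.05 to 0.40) were highest, followed by Psmg3 (-0.34), Psmb10 (-0.55) and Psmc3 (-0.60), an ATPase subunit at 208, 95.02 and 111 TPM in replicates 1, 2 and 3. All 3 inducible cutting subunits lay above their standard counterparts in this ratio: Psmb8 at -0.80 and Psmb5 at -0.86, Psmb9 at 0.23 and Psmb6 at -1.27, and Psmb10 at -0.55 and Psmb7 at -1.05. The intervals of Psmb8 (-0.97 to -0.64) and Psmb5 (-1.25 to -0.49) overlap, as do those of Psmb10 (-0.98 to -0.13) and Psmb7 (-1.29 to -0.81), and those of Psmb9 and Psmb6 do not. Of these 6 genes, Psmb7, Psmb8 and Psmb9 have opposite-strand exons. With TMM or DESeq2 scaling every ratio rises by 0.45 or 0.56. The number above 0 was then 3 (with Psmg3) or 4 (with Psmg3 and Psmb10) of 46.

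**Figure D3:**
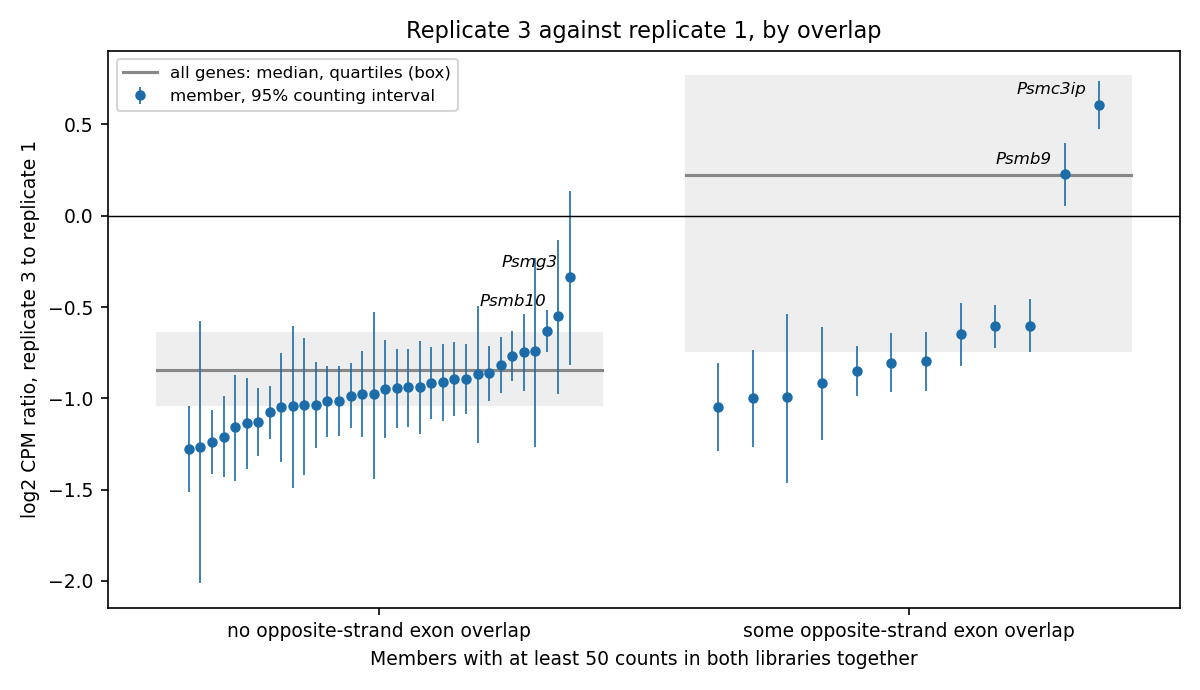
Log2 ratio of CPM in replicate 3 to replicate 1 for the 46 members with at least 50 counts, with 95% counting intervals, split by whether they share exonic positions with a gene of the other strand; grey boxes and lines give the quartiles and median of all genes in each class. All 34 members without overlap lie below 0 and Psmb9 and Psmc3ip, both with overlap, above it.

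The opposite-strand genes of 4 members carried more counts per kb than the member. Gm20496 (chromosome 17, 34199316 to 34205449, minus strand; 663 bp of exons) shares 186 positions with Psmb8 and took 10112, 71 and 12224 counts in replicates 1, 2 and 3, against 1049, 4 and 449 for Psmb8. Per kb it stood 39.8-fold above Psmb8 in replicate 1 and 112-fold in replicate 3. Gm12356 against Psmd3, Nek6 against Psmb7 and AY074887 against Psma4 stood 12.35-, 4.02- and 2.63-fold above the member in replicate 1 and 30.0-, 13.7- and 9.21-fold in replicate 3. In the other 8 pairs the member was the higher in both libraries.

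Within a pair the genes mostly moved apart between replicates 1 and 3. Gm20496 had a log2 CPM ratio of replicate 3 to replicate 1 of 0.69, Nek6 of 0.73, Gm12356 of 0.63 and AY074887 of 0.96, while Psmb8 (-0.80), Psmb7 (-1.05), Psmd3 (-0.65) and Psma4 (-0.85) were below 0. For Psmb9 and Psmc3ip the sides were exchanged: Tap1, which carries peptides into the endoplasmic reticulum and overlaps Psmb9 by 5.79% of its length, stood at -0.42, and Mlx, which overlaps Psmc3ip by 21.2%, at -0.14. Of the 9 pairs with at least 50 counts for each gene, 8 had ratios of opposite sign, against 77.6% of 2002 such pairs among all genes. The share in the members is near that of all pairs. Psmb9 made up 1.80% of member counts in replicate 1 (interval 1.66 to 1.95) and 3.63% in replicate 3 (3.33 to 3.96), while Psmb8 made up 3.20% (3.01 to 3.40) and 3.16% (2.88 to 3.46).

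**Figure D4:**
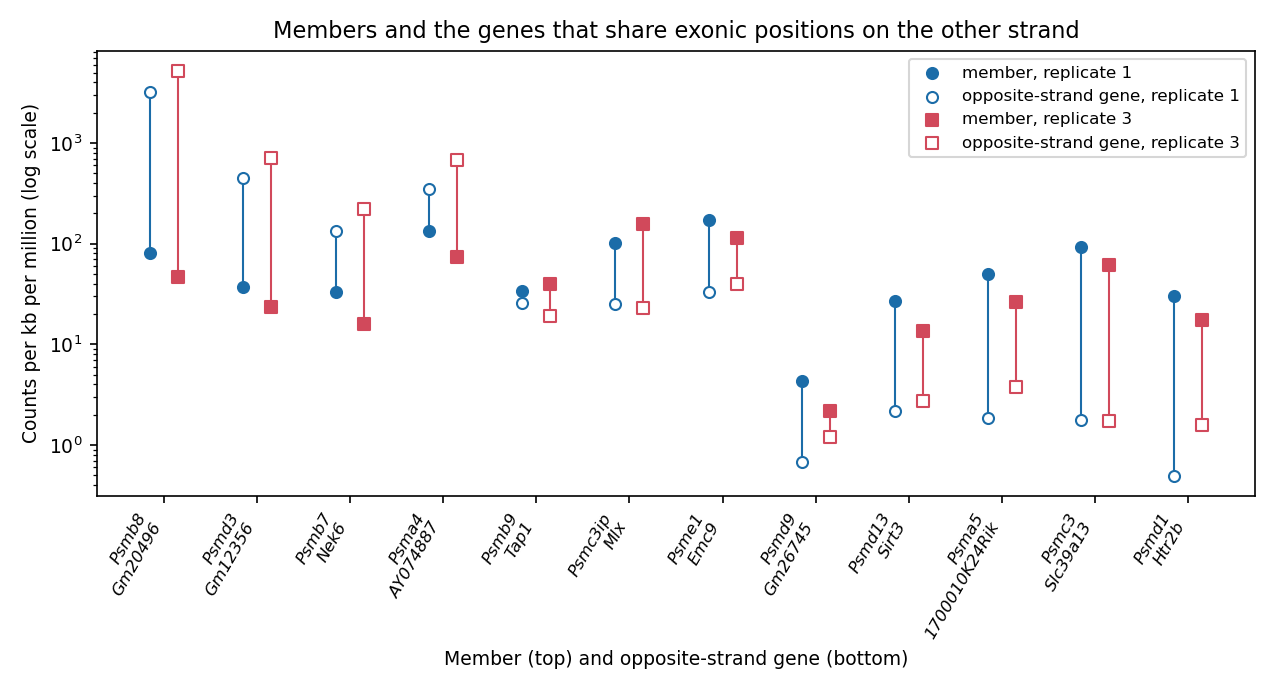
CPM per kb of exon (log axis) of the 12 members with overlap (filled) and of the gene that shares exonic positions with each on the other strand (open), in replicates 1 and 3. Gm20496, Gm12356, Nek6 and AY074887 lie above their member, and the distance is wider in replicate 3.

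Other genes of the pathway were present in all groups examined. Of 32 genes on a list of accessory factors, regulators, ubiquitin shuttles, ubiquitin genes and peptide loading, 29 reached 1 TPM in every library and all 32 in both replicates 1 and 3. Of all genes, 14.8% and 24.2% did so. Of the 29 tested by the chi-square test, 22 varied beyond counting error, against 63.2% of all genes. By CPM, 21 of the 22 were lower in replicate 3 than in replicate 1. Of all genes with at least 50 counts over both libraries, 25.3% were higher in replicate 3, and 5.17% of those without opposite-strand exons. Among regulators, Nfe2l1 stood at 51.5, 53.1 and 19.9 TPM and Irf1, which drives interferon-inducible subunits, at 75.2, 62.3 and 29.7 TPM. Both were lowest in replicate 3, and Nlrc5, the MHC class I regulator, was lower, at 14.2, 9.72 and 6.93 TPM. Of the peptide loading genes, Tap1, next to Psmb9, stood at 56.5, 37.7 and 34.4 TPM and Tap2 at 63.2, 54.6 and 23.1 TPM.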

How the data were processed

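RNA of 3 Th1 libraries was measured as fragment counts per gene. The deposited values are raw counts made by the authors with featureCounts 1.4.6-p4, per the file headers: read pairs with both ends mapped, exons summed by gene, strand setting 1, GENCODE M13, mm10. The deposited gene length is another value, the length of all exons of a gene. The library kit is not given in the sources used here. Gene identifiers gave a symbol for 50376 of 50600 genes. CPM and TPM were computed from counts and that length. Exonic overlap was found with bedtools 2.31.1. Variation was tested by chi-square with 2 degrees of freedom against TMM-scaled totals (edgeR 4.0.16, R 4.3.3), on genes passing edgeR's expression filter, adjusted at 0.05. In simulated counts for 7406 genes it called 100% of genes changed 2-fold or 4-fold and 0.37% of unchanged ones. Those counts held counting error only, with known library sizes, and the changed genes had at least 100 counts and changed in replicate 3 alone. The simulation thus does not cover genes with few counts, changes in replicate 2 or errors of scaling. DESeq2 1.42.0 gave alternative size factors. A test between groups was not possible with 1 group. Ratios within a library used Python 3.11.15 with scipy 1.17.1.

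Members and lists were chosen with earlier results of these data known. Values per library are given for Psmb5 to Psmb10, Psme1 to Psme4, Psmg1 to Psmg4, Pomp, the ends of each class by mean TPM of replicates 1 and 3, and the 5 members at each end of the replicate 3 to replicate 1 ratio; other members named were chosen after their values were seen. Promoters are from RefSeq (GRCm38.p6). Protein sequences were not analysed here, and values of a few listed genes are not reported here.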

Additional observations from a re-analysis of the deposited data

How the results depend on the processing

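Of 161 values recomputed under alternatives, 7 ratios between genes changed sign. Ratios between genes were judged by sign alone, and several kept it but moved beyond the spread between libraries. In CPM, Psmb8 to Psmb5 went from 0.60 to 2.25, Psmb10 to Psmb7 from -0.65 to -1.66, Psme1 to Psme3 from 0.92 to 0.50, Psme1 to Psme4 from 4.72 to 2.80 and Psme1 to Psmd1 from 2.67 to 0.95. With principal transcript lengths, Psmb8 to Psmb5 was 1.35, Psmb10 to Psmb7 -1.83 and Psme1 to Psme3 1.76. Of the class medians, counts and replicate ratios, 17 moved by more than the spread, 1.5 times or the error of the median. With CPM in place of TPM, the mean log2 ratio became 0.42 for Psmb9 to Psmb6, 0.11 for Psmg1 to Psmg2, 1.32 for Psmg3 to Psmg4 and 0.50 for the inducible to the standard sum. Principal transcript lengths gave 0.13 for Psmg1 to Psmg2 and 0.64 for Psmg3 to Psmg4. Leaving out 1 library gave -0.49 to 0.10 for the sums. On the log2(TPM + 1) scale, the mean class median of the 6 activator and inhibitor genes was 5.49, and it was 6.52 in CPM, 3.65 for those without opposite-strand exons and 7.33 for those with 10 counts or more. For the inducible and thymic beta genes it was 4.70, and 1.69 without opposite-strand exons, which leaves Psmb10 and Psmb11. Principal lengths moved the median from 6.66 to 7.81 for alpha genes, from 6.19 to 7.02 for the other cap genes and from 4.01 to 4.64 for assembly genes. They were used only where shorter than the gene model, and genes other than members were not rescaled. A level could therefore only rise. Members varying beyond counting error numbered 35, where 63.2% of all genes tested varied. Among genes with 20 counts or more, 17 of 47 members did, against 35.7% of all. The fit without opposite-strand exons gave 6 (13.6% of all), and leaving out a library gave 1 to 21 (3.65% to 37.9% of all). Members at 1 TPM in every library numbered 42 to 47 with a library left out. The median replicate 3 to replicate 1 ratio became -0.51 (TMM) and -0.40 (DESeq2) without overlap, and -0.35 and -0.24 with overlap; for overlaps of at least 10% of the exonic length it was -0.99. Apart from scaling, lengths and left-out data, which act by construction, the cause was not tested. Depth limits replicate 2, where 1 count was worth 19.8 CPM.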
